A study of Mus musculus with 8 samples.

Results

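The genes described here were 52 genes of bone morphogenetic protein (BMP), activin and transforming growth factor β (TGF-β) signaling, matched by gene symbol in a table of 18540 genes. They comprised 16 genes of the BMP branch (10 ligands and 6 receptors), 16 of the activin and TGF-β branch (7 ligands, 6 receptors and 3 genes of the latent complex and its matrix), 8 extracellular or membrane antagonists, and 12 Smads and Id targets (8 Smads and 4 Id genes). Bmp1, which encodes a protease, is counted among the 10 ligands by its name. In 50 of the 52 the counts were high enough to be tested, as in 15147 of all 18540 genes.

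The measurements were RNA sequencing counts from mouse skin wound tissue, 4 control samples (numbered 1, 2, 3 and 5) and 4 samples treated with Z1C2Z (numbered 1, 2, 4 and 5). Z1C2Z is a ZnO2/CeO2@ZIF-8 composite, zinc peroxide and cerium dioxide carried by a zinc imidazolate framework, in its form with more CeO2, and the control wounds received PBS. Tissue for sequencing was taken after 15 days of treatment, and the wound experiments used injections of 100 μg/kg at the wound edge. The submitters' titles call the treated samples "shiyan" and do not name the composite, and these were taken as the Z1C2Z samples because the study's own plots of its sequencing carry that name with the same numbers. The study made paired back wounds in C57BL mice and in diabetic db/db mice, which lack a working leptin receptor. Which strain, age or animal each sequenced sample came from was not given in the sources used here, so the p-values measure the spread between these 8 samples, and samples may share an animal.

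The question behind the comparison was how the composite changes gene transcription in healing skin. Total counts ran from 28856790 to 38974888 per sample, and values below are CPM, the reads of a gene relative to all counted reads of its sample after scaling by TMM factors. Every listed marker of epidermis, fibroblasts, endothelium, macrophages, neutrophils, adipocytes and skeletal muscle had a count above 0 in all 8 samples. At this depth that is a low bar, and it does not establish which cell types the labelled tissue, skin, held. The samples did not form compact groups: on the first principal component of all genes the range of the controls was -62.9 to -12.2, while the treated samples had scores of -0.29 (number 5), 28.1 (number 1), 65.7 (number 2) and 67.7 (number 4).

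BMPs, activins and TGF-βs are secreted dimers of one protein family. Each binds a pair of type II and a pair of type I receptor kinases, and the type I receptor phosphorylates Smads in the cytoplasm: BMP receptors act mainly on Smad1, Smad5 and Smad9, activin and TGF-β receptors on Smad2 and Smad3, and both sets enter the nucleus with Smad4. Antagonists trap the ligands outside the cell, and Smad6 and Smad7 inhibit the receptors from within. In skin, TGF-β and activin are known for the fibroblast, matrix and inflammatory response of a wound, and BMPs for the differentiation of the hair shaft and for holding hair follicle stem cells at rest.

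Of the 50 tested genes, 7 rose and 7 fell in the Z1C2Z samples (edgeR's quasi-likelihood test, Benjamini-Hochberg adjusted p under 0.05 over all 15147 genes). The genes that rose were the BMP ligands Bmp2, Bmp4 and Bmp8a, the antagonists Bambi and Sostdc1, the inhibitory Smad6, and Id4. Those that fell were the BMP receptor Acvr1, the ligands Tgfb2, Inhba and Inhbb, the latent TGF-β binding protein Ltbp1, and the antagonists Grem1 and Fst. Over all genes tested 4.28% rose and 3.85% fell, or 8.13% in all, against 28.0% of these 50. The 50 were chosen with earlier results of these data known, so this contrast is a description and not a test. The 4 values of each group did not overlap in 9 genes that stood higher and 12 that stood lower with Z1C2Z, where 8.45% and 8.82% of all genes did so. The median log2 fold change of the 50 was -0.14 and that of all genes 0.0086. At an unadjusted p under 0.05 edgeR had 11 of the 50 higher and 22 lower, and 1946 and 2302 of all 15147 genes. DESeq2, run as another tool, called 7 of the 50 higher and 19 lower, and 1206 and 1539 of all genes. The unadjusted and DESeq2 counts given below by role or list are to be read beside these totals. In whole tissue a lower level cannot be told apart from fewer cells of the expressing type, and the same holds for a higher level and more cells.

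These calls rested on few samples. Left out singly, control-5, Z1C2Z-1, Z1C2Z-2 and Z1C2Z-4 each took the count of called members to 0 (and of all genes to 0), and without control-2 it was 0 higher and 2 lower. Without Z1C2Z-2 and Z1C2Z-4 together, edgeR's quasi-likelihood test called 0 members, with 7 higher and 9 lower at an unadjusted p under 0.05. All 14 called genes kept their direction in every one of these fits, as the plot of alternative fits shows.

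**Figure D1:**
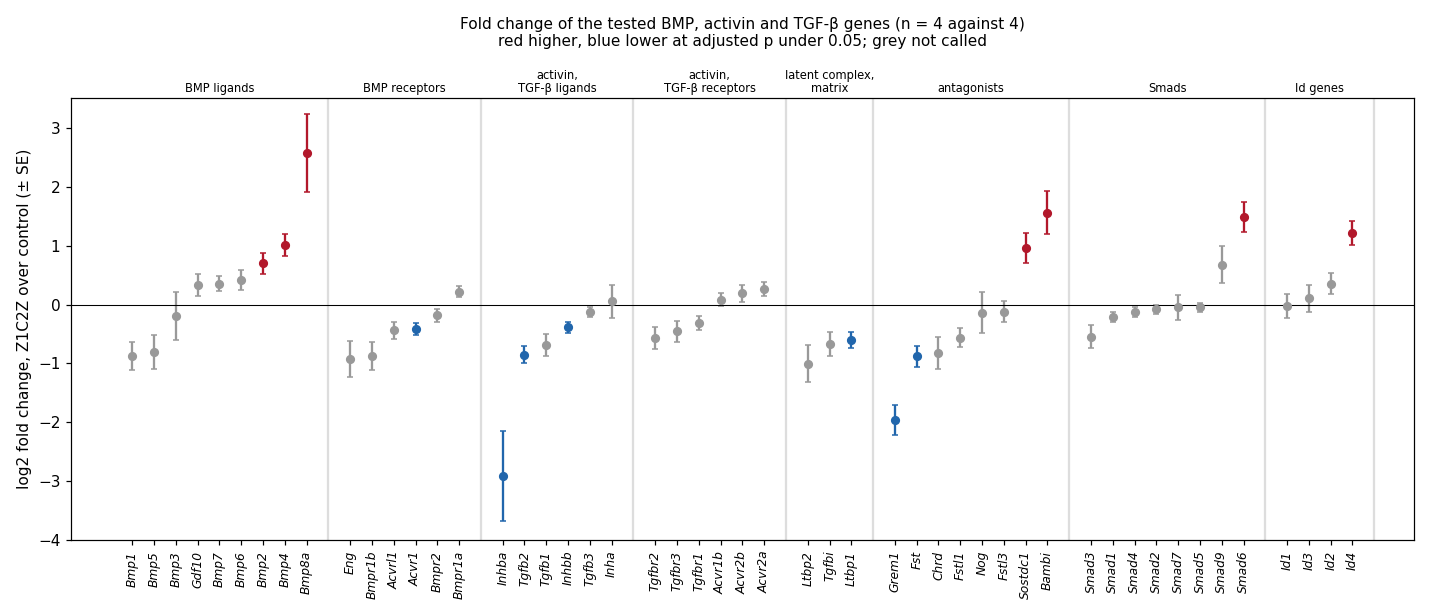
Log2 fold change (vertical axis, Z1C2Z over control, ± SE, 4 samples a group) of each tested gene, grouped by role along the horizontal axis. Red points rose and blue points fell at an adjusted p under 0.05, and grey points were not called. The called BMP ligands lie above 0 and the called activin and TGF-β ligands below it, from 2.58 for Bmp8a to -2.91 for Inhba.

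Promoter sequence is given for 4 of the called genes with different roles, a BMP ligand, a BMP antagonist, an inhibitory Smad and an Id gene, to show what lies directly upstream of genes that moved. The windows are the 250 bases before the RefSeq start on GRCm38.p6, read 5′ to 3′ on the strand of the gene, with capitals for GGCGCC (its own reverse complement), a letter string of BMP Smad binding, and for CAGAC or GTCTG (either strand), the Smad box. Bmp4 lies at chr14:46390670-46390919 on the minus strand, Grem1 at chr2:113758649-113758898 on the minus strand, Smad6 at chr9:64022060-64022309 on the minus strand, and Id4 at chr13:48260866-48261115 on the plus strand. None of the windows overlaps an exon of GENCODE vM21.
Bmp4: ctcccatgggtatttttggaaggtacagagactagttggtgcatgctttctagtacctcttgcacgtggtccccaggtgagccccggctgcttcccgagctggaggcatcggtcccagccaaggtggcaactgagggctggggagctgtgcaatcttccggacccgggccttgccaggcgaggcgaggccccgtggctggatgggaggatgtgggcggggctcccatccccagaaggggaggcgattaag
Grem1: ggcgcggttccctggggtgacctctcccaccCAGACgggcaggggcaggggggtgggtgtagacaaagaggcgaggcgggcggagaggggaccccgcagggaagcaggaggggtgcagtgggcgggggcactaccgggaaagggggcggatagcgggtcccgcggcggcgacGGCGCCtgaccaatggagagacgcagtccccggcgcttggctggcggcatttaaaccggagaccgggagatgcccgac
Smad6: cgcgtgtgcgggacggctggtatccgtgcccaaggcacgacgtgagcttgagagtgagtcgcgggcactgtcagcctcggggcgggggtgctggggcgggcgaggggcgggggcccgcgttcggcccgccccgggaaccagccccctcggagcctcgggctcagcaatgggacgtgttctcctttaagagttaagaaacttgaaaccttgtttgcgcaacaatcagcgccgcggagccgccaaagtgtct
Id4: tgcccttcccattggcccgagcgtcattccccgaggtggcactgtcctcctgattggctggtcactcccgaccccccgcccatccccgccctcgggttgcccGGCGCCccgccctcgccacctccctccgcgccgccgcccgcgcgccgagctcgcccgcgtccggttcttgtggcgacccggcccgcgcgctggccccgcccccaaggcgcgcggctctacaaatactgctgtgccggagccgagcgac
Id4 held 1 GGCGCC, Grem1 held 1 GGCGCC and 1 CAGAC, and the Bmp4 and Smad6 windows held no match to either string. RefSeq gave windows for 37 of the 52 genes, 44 windows in all. GGCGCC stood in 10 of these 44 (22.7%) and in 3149 of 32851 windows of all genes (9.6%), and CAGAC or GTCTG stood in 24 of 44 (54.5%) and in 42.2% of all windows. Among called genes with a window, GGCGCC was in 1 of 4 windows of genes that rose and 1 of 7 of genes that fell, and the Smad box in 1 of 4 and 4 of 7. GGCGCC holds only G and C, and the base composition of the member windows was not compared with that of all windows. Some genes had more than 1 window, in part overlapping. The strings are a description of these windows, not sites shown to be bound.

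Of the 9 tested genes grouped as BMP ligands, among them the protease gene Bmp1, 3 rose and none fell. Their median log2 fold change was 0.35. At an unadjusted p under 0.05 edgeR had 5 higher and 2 lower, and DESeq2, run as another tool, called 3 higher and 2 lower. In both tools the 2 lower genes were Bmp1 and Bmp5. Bmp4 (Entrez Gene 12159) encodes a ligand made in the dermal papilla and hair matrix. Controls 1, 2, 3 and 5 had 8.21, 7.69, 7.55 and 5.72 CPM of Bmp4, and Z1C2Z samples 1, 2, 4 and 5 had 14.6, 15.5, 18.2 and 10.5 CPM. Every treated sample stood above every control, with Z1C2Z-4 highest and Z1C2Z-5 nearest to the controls. The rise was 2.02-fold (log2 fold change 1.01 ± 0.19 SE, adjusted p = 0.0300, exact permutation test over samples p = 0.0286, the smallest that 4 against 4 samples allow).

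Bmp2 (Entrez Gene 12156) encodes the closest relative of Bmp4. Its CPM was 12.2, 11.7, 11.6 and 8.84 in controls 1, 2, 3 and 5, against 17.4, 20.0, 22.0 and 12.7 in Z1C2Z samples 1, 2, 4 and 5. The groups did not overlap, although Z1C2Z-5 lay close to control-1, and the rise was 1.63-fold (log2 0.70 ± 0.18 SE, edgeR adjusted p = 0.0476).

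Bmp8a (Entrez Gene 12163), a ligand best known from germ cells and fat, had 4, 21, 51 and 8 counts in controls 1, 2, 3 and 5 and 195, 154, 137 and 51 counts in Z1C2Z samples 1, 2, 4 and 5. In CPM the range was 0.142 to 1.40 in controls and 1.41 to 5.50 with Z1C2Z, so the lowest treated sample, Z1C2Z-5, was level with control-3. The fitted rise was the steepest of the 50 genes at 5.97-fold (log2 2.58 ± 0.66 SE, edgeR adjusted p = 0.0472), from the lowest counts of any called gene. Its near-identical neighbour Bmp8b had at most 2 counts in any sample and was not tested, and how reads shared between both copies were counted was not given in the sources used here, so the value for Bmp8a is uncertain.

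The other tested BMP ligands were not called. Bmp7, Bmp6 and Gdf10 had log2 fold changes of 0.35, 0.41 and 0.33 (adjusted p = 0.118, 0.159 and 0.285 by edgeR's quasi-likelihood test), with overlapping groups. Bmp5 stood at -0.80 (adjusted p = 0.109) and Bmp3 at -0.20 (adjusted p = 0.782). Bmp1, which encodes a procollagen protease rather than a ligand of the family and is grouped here by its name, had the highest level per exon length of the 9 tested BMP ligand genes, at 43.9 CPM per kb in controls and 23.9 with Z1C2Z. Its log2 fold change was -0.88 ± 0.24 SE (edgeR adjusted p = 0.0547), and Z1C2Z-1 and Z1C2Z-5 lay within the range of the controls.

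Of the 6 BMP receptors, 1 fell and none rose, with a median log2 fold change of -0.43. Unadjusted, 1 was higher and 4 lower in edgeR, and DESeq2 called 0 higher and 4 lower. Acvr1 (Entrez Gene 11477), the type I receptor also called ALK2, had 49.3, 53.6, 53.4 and 58.9 CPM in controls 1, 2, 3 and 5 and 41.8, 34.9, 38.5 and 46.0 CPM in Z1C2Z samples 1, 2, 4 and 5. All treated values lay below all controls by a small margin, a 1.33-fold fall (log2 -0.42 ± 0.10 SE, edgeR adjusted p = 0.0449).

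Bmpr1b and Bmpr1a encode the related type I receptors ALK6 and ALK3, and in both the groups did not overlap, in opposite directions. Bmpr1b CPM was 9.13, 11.2, 8.48 and 10.8 in controls 1, 2, 3 and 5 and 6.77, 4.25, 3.62 and 6.99 in Z1C2Z samples 1, 2, 4 and 5, a log2 fold change of -0.87 ± 0.23 SE just short of a call (edgeR adjusted p = 0.0502). Bmpr1a CPM was 236, 239, 232 and 193 in the same order of controls and 282, 257, 256 and 249 in the treated samples (log2 0.21 ± 0.09 SE, adjusted p = 0.177). Control-5 was the low sample for Bmpr1a and lay apart from the other controls. At 35.4 CPM per kb in controls Bmpr1a was the most abundant BMP receptor gene per exon length, followed by Eng at 20.9 and Bmpr2 at 16.3.

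The type II receptor gene Bmpr2 and the endothelial receptors Acvrl1 and Eng were not called. Their log2 fold changes were -0.18, -0.43 and -0.92 (adjusted p = 0.324, 0.0897 and 0.0913 by edgeR's quasi-likelihood test), and their groups overlapped. Eng ranged from 50.1 CPM in control-1 to 135 CPM in control-5 and from 33.0 to 60.8 CPM with Z1C2Z. The 10 endothelial markers varied the same way among controls, with a summed level of 373 CPM in control-1 and 1015 CPM in control-5, against 338 to 617 CPM in the treated samples. The median log2 fold change of the 10 markers was -0.73, with 9 of them below 0. Of this list edgeR called none, with 0 higher and 5 lower at an unadjusted p under 0.05, and DESeq2 called 0 higher and 2 lower. The part of these markers in the values of Eng and Acvrl1 was not tested.

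**Figure D2:**
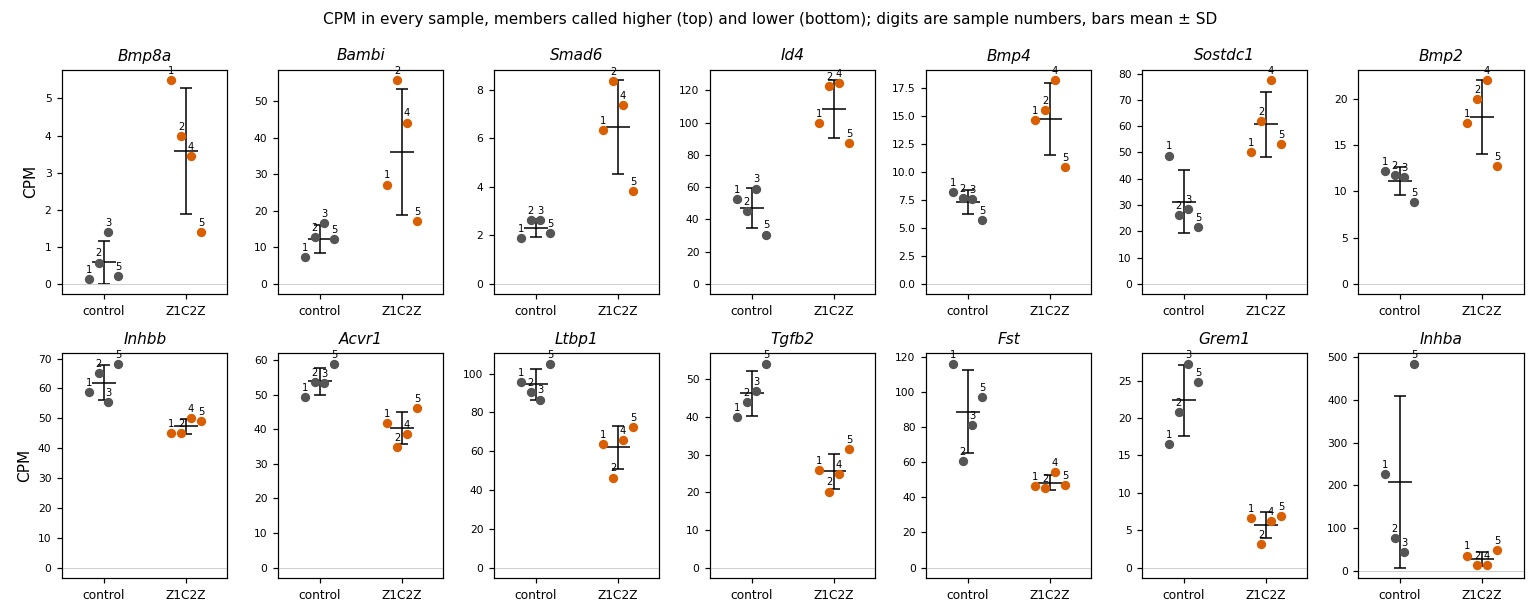
CPM (vertical axes, linear, from 0) of the 14 called genes in each sample, controls in grey and Z1C2Z in orange, with the sample number beside each point and the mean ± SD as bars. Genes that rose fill the top row and genes that fell the bottom row. The groups overlap in Inhba only among these 14, where Z1C2Z-5 at 47.9 CPM lies above control-3 at 44.3 CPM.

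In the activin and TGF-β branch none of the 15 tested genes rose and 4 fell, with a median log2 fold change of -0.46. Unadjusted, 1 was higher and 10 lower at p under 0.05 in edgeR, and DESeq2 called 0 higher and 8 lower. The 3 ligands that fell were Inhba, Inhbb and Tgfb2. Inhba (Entrez Gene 16323) encodes the βA subunit of activin A, a factor known to be induced in wounded skin. Its CPM was 226, 77.4, 44.3 and 485 in controls 1, 2, 3 and 5 and 35.6, 13.5, 13.8 and 47.9 in Z1C2Z samples 1, 2, 4 and 5. The controls spread over a wide range, with control-5 highest, and Z1C2Z-5 lay just above control-3. The difference was the deepest fall of the 50 genes, 7.52-fold (log2 -2.91 ± 0.76 SE, edgeR adjusted p = 0.0497, exact permutation p = 0.0571), with a 95% interval from -4.63 to -1.19 on the log2 scale. Without control-5 the log2 fold change was -2.05.

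Inhbb (Entrez Gene 16324) encodes the βB subunit of activin B. Controls 1, 2, 3 and 5 had 58.7, 65.0, 55.4 and 68.3 CPM and Z1C2Z samples 1, 2, 4 and 5 had 45.1, 45.2, 50.0 and 49.0 CPM. Both groups were tight and did not overlap, and the fall was 1.31-fold (log2 -0.39 ± 0.09 SE, edgeR adjusted p = 0.0396).

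The study also measured TGF-β protein in wounds, with an immunoassay kit listed for TGF-β1, and reported more of it with treatment. Whether that assay used the sequenced wounds was not given, and protein and RNA were not compared here. The RNA of the 3 TGF-β genes was as follows. Tgfb2 (Entrez Gene 21808) stood at 39.9, 44.0, 47.0 and 54.2 CPM in controls 1, 2, 3 and 5 and at 25.9, 20.2, 24.8 and 31.5 CPM in Z1C2Z samples 1, 2, 4 and 5, a fall of 1.81-fold without overlap (log2 -0.85 ± 0.15 SE, edgeR adjusted p = 0.0299). Tgfb1, the isoform of platelets and immune cells, had 51.0, 50.7, 52.9 and 83.1 CPM in the controls and 35.1, 32.5, 33.7 and 46.6 CPM with Z1C2Z in the same order. The groups did not overlap, but control-5 stood far above the other controls and the adjusted p was 0.0557 by edgeR's quasi-likelihood test (log2 -0.68 ± 0.19 SE, exact permutation p = 0.0286). Tgfb3 was the most abundant of the 3 per exon length at 22.0 CPM per kb in controls and 20.1 with Z1C2Z, and its difference was small (log2 -0.13, 95% interval -0.32 to 0.06, edgeR adjusted p = 0.331). Whether the 3 isoforms differed from each other in their response was not tested. Of the remaining ligand genes, Inha, the inhibin α subunit, stood at 2.22 to 4.61 CPM over all 8 samples (log2 0.05, 95% interval -0.60 to 0.70, edgeR adjusted p = 0.925), and Gdf15, a stress-induced cytokine, had 1 to 25 counts per sample and was not tested.

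None of the 6 activin and TGF-β receptors was called, and their median log2 fold change was -0.12. In edgeR 1 was higher and 3 lower at an unadjusted p under 0.05, and DESeq2 called 1 lower, Tgfbr2. Tgfbr2, the type II receptor that binds TGF-β first, was the most abundant, with 65.6 CPM per kb in controls and 44.4 with Z1C2Z. Tgfbr2 CPM in controls 1, 2, 3 and 5 was 479, 616, 485 and 569, and in Z1C2Z samples 1, 2, 4 and 5 it was 410, 272, 295 and 477. The groups did not overlap, but Z1C2Z-5 lay next to control-1 (log2 -0.56 ± 0.19 SE, edgeR adjusted p = 0.0888). Tgfbr1, its type I partner, had 101, 89.4, 89.4 and 98.3 CPM against 85.9, 74.9, 59.6 and 83.5 CPM in the same order, also without overlap (log2 -0.32 ± 0.12 SE, edgeR adjusted p = 0.130).

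The activin type II receptor gene Acvr2a stood the other way. It had 59.7, 61.4, 60.8 and 45.9 CPM in controls 1, 2, 3 and 5 and 77.2, 64.8, 64.7 and 67.3 CPM in Z1C2Z samples 1, 2, 4 and 5 (log2 0.27 ± 0.11 SE, edgeR adjusted p = 0.167). The groups did not overlap, with control-5 as the low control once more. The co-receptor gene Tgfbr3 stood at -0.46 on the log2 scale (edgeR adjusted p = 0.120), and Acvr1b and Acvr2b had 0.08 and 0.19 (adjusted p = 0.638 and 0.407), all with overlap.

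TGF-β is stored in the matrix bound to latent TGF-β binding proteins. Ltbp1 (Entrez Gene 268977), which encodes the main such protein, had 95.7, 90.4, 86.6 and 105 CPM in controls 1, 2, 3 and 5 and 63.8, 46.4, 65.5 and 72.4 CPM in Z1C2Z samples 1, 2, 4 and 5. Treated values lay below all controls, with Z1C2Z-2 lowest, and the fall was 1.52-fold (log2 -0.61 ± 0.14 SE, edgeR adjusted p = 0.0364). Ltbp2, an elastic fibre protein that does not bind latent TGF-β, had 25.0, 29.2, 24.1 and 57.4 CPM in the controls and 20.5, 11.5, 13.7 and 22.1 CPM with Z1C2Z. Here too no treated value reached the controls, but control-5 stood well above the other controls, and the gene was not called (log2 -1.005 ± 0.32 SE, edgeR adjusted p = 0.0807). Tgfbi, a TGF-β induced adhesion protein of the matrix, had the highest level of the branch per exon length, 130 CPM per kb in controls and 81.6 with Z1C2Z (log2 -0.68 ± 0.20 SE, edgeR adjusted p = 0.0706), with Z1C2Z-5 inside the range of the controls.

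Of the 8 antagonists 2 rose and 2 fell, with a median log2 fold change of -0.35. At an unadjusted p under 0.05 edgeR had 2 higher and 4 lower, and DESeq2 called 2 higher and 4 lower. The gene that fell with the smallest adjusted p of all 50 was Grem1 (Entrez Gene 23892), which encodes gremlin 1, a secreted trap of BMP2 and BMP4. Grem1 CPM was 16.5, 20.8, 27.3 and 24.8 in controls 1, 2, 3 and 5 and 6.68, 3.19, 6.20 and 6.85 in Z1C2Z samples 1, 2, 4 and 5. The groups lay far apart, with Z1C2Z-2 the lowest, and the fall was 3.90-fold (log2 -1.97 ± 0.26 SE, edgeR adjusted p = 0.0280, exact permutation p = 0.0286). Its printed promoter window is the one of the 4 that carried both strings.

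Fst (Entrez Gene 14313) encodes follistatin, which binds activin and neutralises it. Controls 1, 2, 3 and 5 had 116, 60.7, 81.3 and 96.9 CPM and Z1C2Z samples 1, 2, 4 and 5 had 46.2, 45.3, 54.6 and 47.0 CPM. The controls were scattered and the treated samples close together, without overlap, and the fall was 1.84-fold (log2 -0.88 ± 0.18 SE, edgeR adjusted p = 0.0311). Thus the activin subunit genes Inhba and Inhbb and the gene of their antagonist were all called lower.

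Bambi (Entrez Gene 68010) encodes a membrane protein that resembles a type I receptor without a kinase and is itself induced by BMP. It had 7.25, 12.9, 16.7 and 12.1 CPM in controls 1, 2, 3 and 5 and 27.2, 55.9, 44.2 and 17.2 CPM in Z1C2Z samples 1, 2, 4 and 5. Z1C2Z-5 stood just above control-3 while Z1C2Z-2 and Z1C2Z-4 were far above all controls, a 2.95-fold rise (log2 1.56 ± 0.37 SE, edgeR adjusted p = 0.0396). Without both of these samples the log2 fold change was 0.86. Sostdc1 (Entrez Gene 66042), also called ectodin or Wise, encodes a secreted BMP and Wnt antagonist of hair follicles and teeth. It had 48.8, 26.3, 28.4 and 21.5 CPM in the controls and 50.0, 61.8, 77.6 and 53.2 CPM with Z1C2Z in the same order, so control-1 came close to Z1C2Z-1 (rise of 1.94-fold, log2 0.96 ± 0.25 SE, edgeR adjusted p = 0.0490).

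The other 4 antagonists were not called. Fstl1, a follistatin-like glycoprotein of fibroblasts, was the most abundant of the 50 genes per exon length, with 543 CPM per kb in controls and 367 with Z1C2Z (log2 -0.56 ± 0.16 SE, edgeR adjusted p = 0.0581). Control-1 at 2041 CPM lay below Z1C2Z-5 at 2104 CPM, so the groups overlapped. Chrd, which encodes chordin, stood at -0.83 on the log2 scale (edgeR adjusted p = 0.0865), Fstl3 at -0.12 (adjusted p = 0.681), and Nog, which encodes noggin, at -0.14 with a wide interval of -0.91 to 0.64 (adjusted p = 0.820).

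Of the 8 Smads 1 rose and none fell, with a median log2 fold change of -0.07. At an unadjusted p under 0.05 edgeR had 1 higher and 2 lower, and DESeq2 called 1 of each. The gene that rose was Smad6 (Entrez Gene 17130), an inhibitory Smad that is induced by BMP and acts chiefly against BMP receptors. Smad6 had 1.88, 2.61, 2.62 and 2.08 CPM in controls 1, 2, 3 and 5 and 6.32, 8.34, 7.36 and 3.83 CPM in Z1C2Z samples 1, 2, 4 and 5. Every treated sample exceeded every control, with Z1C2Z-5 lowest among them, a 2.81-fold rise (log2 1.49 ± 0.26 SE, edgeR adjusted p = 0.0299). Smad7, the other inhibitory Smad, which acts on both branches, stood at -0.05 on the log2 scale with a 95% interval of -0.54 to 0.44 (edgeR adjusted p = 0.902). Whether Smad6 and Smad7 differed in their response was not tested.

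Smad1, a receptor-activated Smad of the BMP branch, had 69.1, 67.9, 71.9 and 74.2 CPM in controls 1, 2, 3 and 5 and 56.1, 60.2, 66.8 and 60.8 CPM in Z1C2Z samples 1, 2, 4 and 5. The groups were narrowly apart (log2 -0.21 ± 0.08 SE, edgeR adjusted p = 0.125). The other 5 Smads overlapped between groups: Smad4, the shared partner and the most abundant Smad at 38.1 CPM per kb in controls, at log2 -0.13, Smad2 at -0.08, Smad5 at -0.05, Smad3 at -0.55 and Smad9 at 0.68, with adjusted p from 0.108 (Smad3) to 0.722 (Smad5) by edgeR's quasi-likelihood test. For Smad2, Smad4 and Smad5 the 95% intervals lay within -0.31 and 0.13.

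The 4 Id genes encode inhibitors of basic helix-loop-helix transcription factors, and Id1 to Id3 are textbook BMP targets. Of the 4, only Id4 rose in this test. Id4 (Entrez Gene 15904) had 52.8, 45.3, 59.1 and 30.5 CPM in controls 1, 2, 3 and 5 and 100, 123, 124 and 87.3 CPM in Z1C2Z samples 1, 2, 4 and 5. The groups were well separated, with control-5 the lowest control, and the rise was 2.31-fold (log2 1.21 ± 0.20 SE, edgeR adjusted p = 0.0299). Id1, Id2 and Id3 had log2 fold changes of -0.02, 0.35 and 0.11 (95% intervals -0.49 to 0.44, -0.05 to 0.75 and -0.41 to 0.63, edgeR adjusted p = 0.955, 0.228 and 0.789). In Id1 and Id3 control-5 was the highest of all 8 samples, at 44.9 and 46.3 CPM. No test of Id4 against the other Id genes was made.

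**Figure D3:**
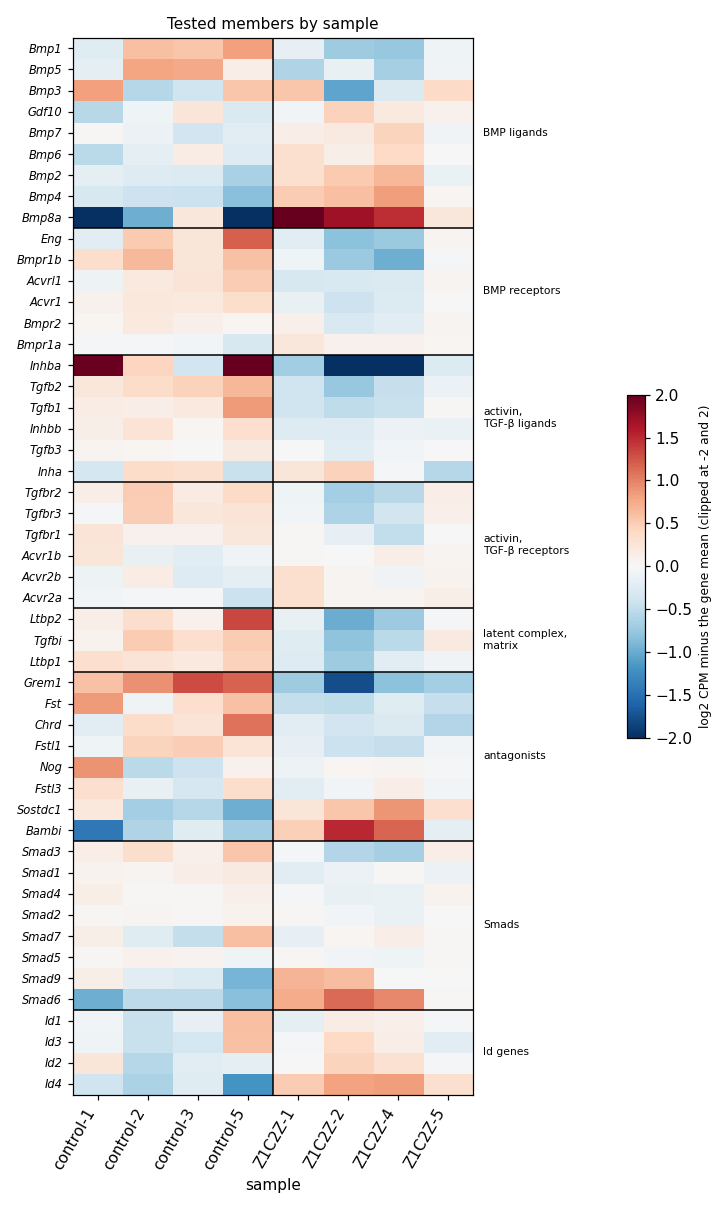
Log2 CPM minus the mean of the gene over the 8 samples (colour, red above and blue below, clipped at -2 and 2) for the 50 tested genes in rows by role and the 8 samples in columns. Z1C2Z-5 is pale in most rows, between the controls and the other treated samples, and control-5 shows strong red for Inhba, Ltbp2, Eng and Chrd and blue for Bmp4 and Id4.

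The treated samples were not alike in these genes. Of the 7 genes that rose, 6 peaked in the pair Z1C2Z-2 and Z1C2Z-4, and 6 were lowest among treated samples in Z1C2Z-5. In 4 of the 7 genes that fell Z1C2Z-2 and Z1C2Z-4 were the lowest pair, and in 5 of the 7 Z1C2Z-5 was the highest treated sample. Among controls, control-5 was the highest in 5 of the 7 genes that fell and the lowest in 4 of the 7 that rose.

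Hair markers ranked the treated samples from high to low as Z1C2Z-2, Z1C2Z-4, Z1C2Z-1 and Z1C2Z-5, the order of Bambi and Smad6. Bmp2, Bmp4 and Id4 had the same order except that Z1C2Z-4 stood above Z1C2Z-2. For Id4 this pair was nearly level, at 124 and 123 CPM. Sostdc1 was highest in Z1C2Z-4 and lowest in Z1C2Z-1, and Bmp8a was highest in Z1C2Z-1 and lowest in Z1C2Z-5. The summed level of 20 genes of the hair shaft and inner root sheath was 744, 2573, 4094 and 687 CPM in controls 1, 2, 3 and 5 and 10443, 18951, 18185 and 4964 CPM in Z1C2Z samples 1, 2, 4 and 5, and 18 of the 20 rose (edgeR's quasi-likelihood test). The dermal papilla list covers the signaling fibroblasts at the base of the follicle, where Bmp4 is known to be made. It summed to 76.0 to 111 CPM in controls and 105 to 129 CPM with Z1C2Z, and 2 of 10 rose, Wif1 and Lef1. At an unadjusted p under 0.05 edgeR had 4 of the list higher and 1 lower, Crabp1 (log2 -0.81). DESeq2 called 3 higher and 1 lower. Fibroblast markers summed to 56168 to 79626 CPM in controls and 44222 to 61639 CPM with Z1C2Z, and 3 of 10 fell, where 8 were lower at an unadjusted p under 0.05 in edgeR and 8 were called lower by DESeq2. Macrophage markers summed to 2646 to 3246 CPM against 1580 to 2702 CPM, and neutrophil markers to 714 to 1662 CPM against 231 to 814 CPM, with overlap in both sums. None of either list was called by edgeR, with 4 macrophage and 6 neutrophil markers lower at an unadjusted p under 0.05, and DESeq2 called 1 and 2 lower. Skeletal muscle markers, from the layer under mouse skin, summed to 3273 to 6004 CPM against 2757 to 3076 CPM, and 3 of 10 fell, against 7 lower unadjusted and 7 called lower by DESeq2. Epidermal markers summed to 12290 to 14940 CPM against 13855 to 19422 CPM and adipocyte markers to 1004 to 1302 CPM against 867 to 1544 CPM. Of both lists edgeR called none, with 1 epidermal marker higher and 4 adipocyte markers lower at an unadjusted p under 0.05, and DESeq2 called 1 higher and 2 lower. None of these markers was at 0 in any sample, and their part in the values of the signaling genes was not tested.

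Beyond these 52, 87 further genes of the pathways were listed, of which 84 were in the table and 71 were tested. Of these 71, 7 rose and 12 fell, against the 4.28% and 3.85% of all genes, with a median log2 fold change of -0.23. These lists too were chosen with earlier results of these data known, so the counts are a description. The TGF-β responsive list had 1 gene that rose and 5 that fell of 12, with a median of -0.56, and the BMP responsive list had 5 that rose and none that fell of 12, with a median of 0.33. By sign alone, 2 genes of the TGF-β responsive list stood above 0 and 10 below, and 7 of the BMP responsive list stood above and 5 below. At an unadjusted p under 0.05 edgeR had 1 higher and 9 lower in the TGF-β responsive list and 5 higher and 0 lower in the BMP responsive list. Col1a1, Col1a2 and Col3a1 are among those 9 and also stand in the fibroblast marker list, so the 2 lists are not separate. DESeq2 called 1 higher and 8 lower in the first and 5 higher and 0 lower in the second.

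Ccn1 and Ccn2, matricellular proteins of the wound response, fell among the TGF-β responsive genes. Ccn1 went from 139 ± 73.6 CPM in controls to 43.2 ± 3.08 CPM with Z1C2Z (mean ± SD, n = 4 each, log2 -1.68, edgeR adjusted p = 0.0302), and Ccn2 from 140 ± 32.9 to 75.6 ± 12.6 CPM (log2 -0.89, edgeR adjusted p = 0.0309). Acta2, the smooth muscle actin of myofibroblasts and vessel walls, fell from 334 ± 63.7 to 211 ± 25.6 CPM (log2 -0.66, edgeR adjusted p = 0.0377). Cdkn2b, a cell cycle inhibitor induced by TGF-β in epithelium, rose from 6.46 ± 0.618 to 10.3 ± 1.05 CPM (log2 0.67, edgeR adjusted p = 0.0302). Pmepa1, a feedback inhibitor of the same list, given beyond the 4 genes of the naming rule after its value was seen, fell by 0.54 on the log2 scale (edgeR adjusted p = 0.0411).

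The BMP responsive genes that rose were homeobox genes and Gata3. Msx2, a homeobox gene of the hair matrix that also stands in the hair marker list, had 10.4, 12.7, 18.5 and 7.58 CPM in controls 1, 2, 3 and 5 and 43.7, 75.7, 58.8 and 31.7 CPM in Z1C2Z samples 1, 2, 4 and 5 (log2 2.09 ± 0.33 SE, edgeR adjusted p = 0.0299). Its groups lay well apart, in the same order of treated samples as for Bambi and Smad6. Msx1, Dlx3 and Dlx2 rose by 1.22, 1.55 and 1.29 on the log2 scale (edgeR adjusted p = 0.0299, 0.0299 and 0.0311). Gata3, a transcription factor of the inner root sheath and epidermis in the same list, likewise given beyond the 4 named by rule, rose by 0.89. The other 7 genes of the list were not called, and 5 of them stood below 0 on the log2 scale, down to -0.84 in Foxc2. Msx2, Dlx3 and Gata3 are also known from the hair follicle, and hair markers moved with them as given above.

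**Figure D4:**
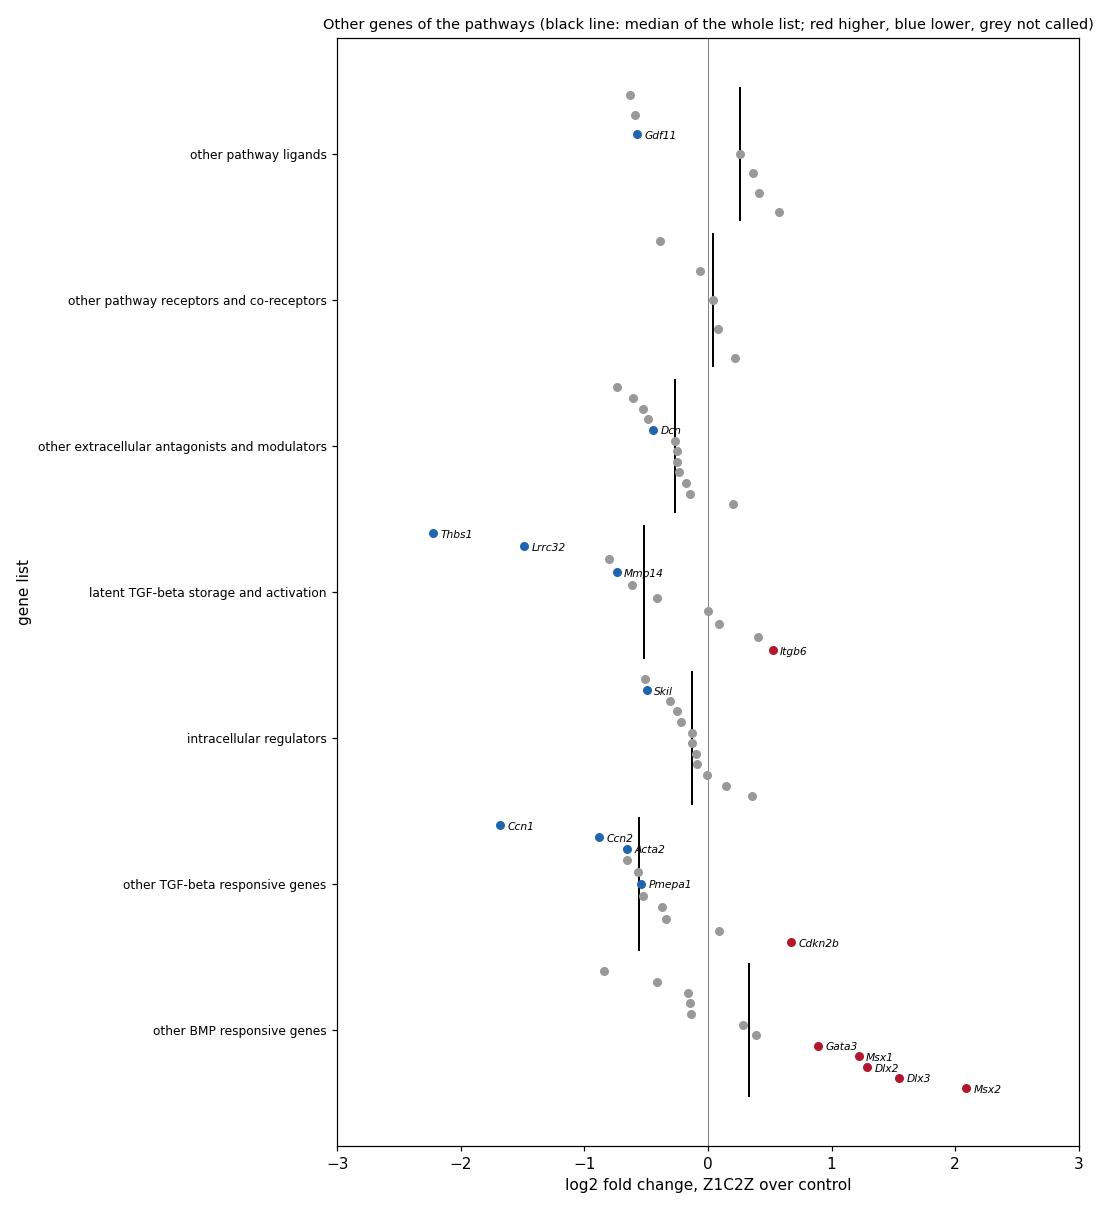
Log2 fold change (horizontal axis, Z1C2Z over control) of the tested further pathway genes, one point each except for those not reported here, by list along the vertical axis, with the median of each whole list as a black line and called genes named, red for higher and blue for lower. TGF-β responsive genes have their median at -0.56 and BMP responsive genes at 0.33, with called genes mostly on the same side as the median.

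Among 10 genes of latent TGF-β storage and activation, 3 fell and 1 rose, where DESeq2 called 6 lower and 1 higher. Thrombospondin 1, encoded by Thbs1 and able to activate latent TGF-β, fell from 981 ± 605 to 210 ± 84.7 CPM (log2 -2.22 ± 0.44 SE, edgeR adjusted p = 0.0302). Control-5 held 1837 CPM of Thbs1 and the other controls 539 to 976 CPM, all above the highest treated value of 302 CPM. Lrrc32, which encodes the GARP protein that holds latent TGF-β at the cell surface, and Mmp14, a membrane protease, fell by 1.49 and 0.74 on the log2 scale (edgeR adjusted p = 0.0396 and 0.0302). Itgb6, the epithelial integrin subunit that releases active TGF-β1, rose by 0.52 (edgeR adjusted p = 0.0483).

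Of 13 tested extracellular modulators 2 fell (5 by DESeq2), among them the proteoglycan Dcn (log2 -0.45 ± 0.09 SE, edgeR adjusted p = 0.0320), which also stands in the fibroblast marker list. Of 12 intracellular regulators 1 fell (2 by DESeq2), Skil, a Smad corepressor and TGF-β target (log2 -0.50 ± 0.13 SE, edgeR adjusted p = 0.0498). Of 7 tested further ligands 1 fell, Gdf11 (log2 -0.57 ± 0.14 SE, edgeR adjusted p = 0.0396), and none of 5 further receptors was called, with 0 at an unadjusted p under 0.05 and 0 called by DESeq2.

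**Figure D5:**
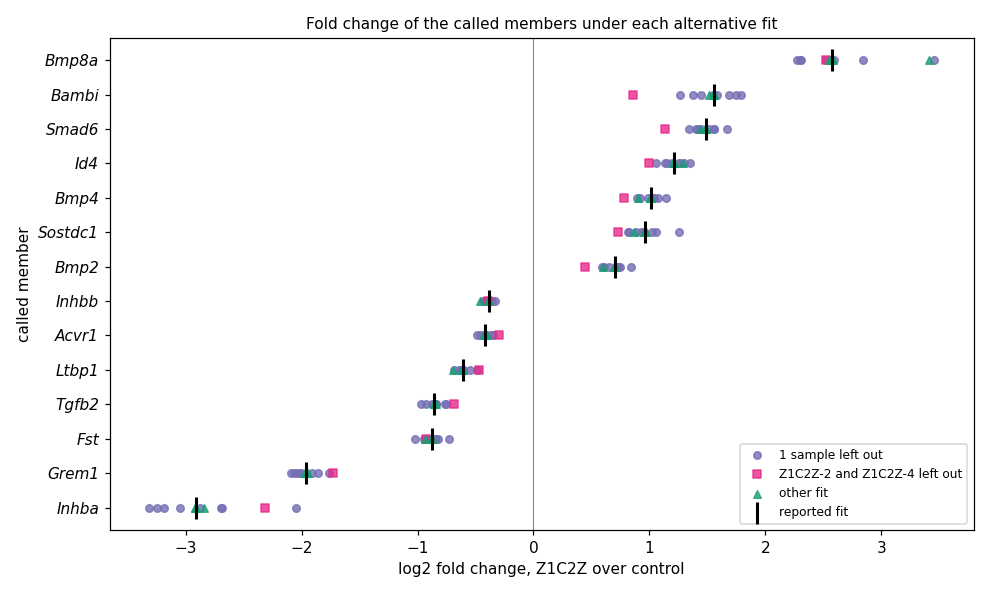
Log2 fold change (horizontal axis, Z1C2Z over control) of the 14 called genes (vertical axis) in the reported fit (black bars) and in each alternative fit, with 1 sample left out (circles), with Z1C2Z-2 and Z1C2Z-4 left out (squares) or with another method (triangles). No symbol crosses 0, and the squares lie nearer to 0 than the reported value for Bambi, Smad6, Bmp2 and Inhba, at 0.86, 1.14, 0.44 and -2.32.

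Reads from opposite strands could be mixed in some genes. Among genes that were not called, the longest overlaps of exons with an annotated gene on the other strand were 1878 of 4025 exon bases in Bmp5, 1157 of 2445 in Fstl3 and 764 of 8184 in Ltbp2. Of the called genes, exons of Bmp4, Tgfb2, Fst and Id4 share 89, 124, 115 and, for Id4 with 2 such genes, 82 and 171 bases with annotated genes on the other strand, and whether counting used the strand that the library kit marks was not given in the sources used here.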

How the data were processed

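Total RNA of 8 mouse skin wound samples was sequenced after removal of rRNA, with random primers and a dUTP second strand, per the labels. Sample labels name Trizol for extraction and the study's methods another kit. The authors deposited raw read counts per gene with symbols and Entrez identifiers. Aligner, counting tool, genome build and strand setting were not given in the sources used here. The table had 0 per-sample columns without a sample.

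Counts were filtered by edgeR's filterByExpr (15147 of 18540 genes kept), scaled by TMM and tested with edgeR 4.0.16 (limma 3.58.1, R 4.3.3) by the quasi-likelihood test in its older form, 4 control against 4 Z1C2Z samples without covariates, with Benjamini-Hochberg adjustment over all genes tested and a threshold of 0.05. The SE is the fold change divided by the root of the F statistic. Exact two-sided permutation tests used all 70 arrangements of log2 CPM with a prior count of 2, with 0.0286 as the smallest p. CPM per kb used the exon union of GENCODE vM21. Promoter windows and their coordinates came from RefSeq on GRCm38.p6. The scripts were tested on simulated data.

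Same-group samples had pairwise r of log2 CPM from 0.960 to 0.990, and no pair agreed within sampling noise. Depth was 28856790 to 38974888 counts, and intervals from the fit cover the spread between samples.

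The genes and lists were chosen with earlier results of these data known. A gene was given in every sample if its adjusted p was under 0.05, its groups did not overlap, its absolute log2 fold change exceeded 1, or it was Tgfb1. Others were given by role, and of the further lists up to 4 called genes by smallest adjusted p. Values of some called genes of those lists are not reported here. Alternatives were DESeq2 1.42.0, RLE size factors, no filter, at least 10 counts in every sample, a replicate block, each sample left out, Z1C2Z-2 and Z1C2Z-4 left out, and a fold threshold. The newer quasi-likelihood method was added after seeing the data. Sample numbers did not pair the groups by the labels.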

Additional observations from a re-analysis of the deposited data

Results flagged for a closer look

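In 6 of 100 groups of 4 values (50 genes in both conditions) 1 sample stood far from the other 3 by Dixon's criterion, and chance alone flags about 1 in 20 groups. In 4 of the 6 the sample was control-5. It was low in Bmp2, at 3.15 log2 CPM against 3.54 to 3.62 in the other controls, in Bmpr1a, at 7.59 against 7.86 to 7.90, and in Acvr2a, at 5.52 against 5.90 to 5.94. It was high in Tgfb1, at 6.38 against 5.67 to 5.73. Among treated samples Z1C2Z-5 was high in Acvrl1, at 5.21 log2 CPM against 4.83 to 4.86, and Z1C2Z-2 was low in Grem1, at 1.70 against 2.65 to 2.79. Of these genes Bmp2 and Grem1 were called, and in both every treated sample lay on one side of every control.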

How the results depend on the processing

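All 14 called genes kept their direction in every fit in which they were tested. With 1 sample left out, the members called ranged from 0 to 7 higher and 0 to 14 lower, and all genes from 0 to 886 higher and 0 to 868 lower. Dropping any of treated samples 1, 2 and 4 or control-5 left no called gene, while edgeR still gave 8 to 9 members higher and 18 to 20 lower at an unadjusted p under 0.05. Without control-2, 25 genes were higher and 98 lower. Without both Z1C2Z-2 and Z1C2Z-4, 0 members and 0 genes were called in either direction, with the smallest adjusted p at 0.280. DESeq2 called 7 members higher and 19 lower, and 1206 and 1539 of all genes. With a log2 fold change over 1 also required, 5 members were higher and 2 lower, and 326 and 189 of all genes. The cause was not tested.

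The sample numbers gave no clear pairing: same-numbered samples deviated with r of -0.101, -0.0623 and 0.323, and not every sample correlated best with its own number. Control-5 and Z1C2Z-5 did match each other best, but the highest r, 0.387, was between control-3 and Z1C2Z-2. So few shared numbers cannot settle whether samples were paired. With the number as a replicate block, 4 members were higher and 3 lower, and 301 and 253 of all genes, and 7 of the 14 calls held. In that fit control-3 and Z1C2Z-4 had no partner of the same number and so did not add to the contrast.

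The median of the BMP branch ranged from -0.24 to 0.062 with 1 sample left out (above 0 without control-1 or Z1C2Z-2), and that of the Smads and Id genes from -0.057 to 0.22 (0.22 without control-5). Signs turned in genes near 0: with 1 sample left out Bmp3 ranged from -0.42 to 0.062, Inha from -0.11 to 0.22, Nog from -0.31 to 0.25, Smad7 from -0.19 to 0.20, Id1 from -0.16 to 0.23 and Id3 from -0.012 to 0.39, and without both Z1C2Z-2 and Z1C2Z-4 Bmp3 was 0.25, Inha -0.14 and Id3 -0.10. Bmp8a lacked 10 counts in some samples and was not tested under that filter. With 4 samples a group, small differences in genes of few counts such as Bmp8b, Gdf15, Smad9 and Nog were not detectable.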
